A study of Mus musculus with 6 samples.

Results

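The solute carrier (SLC) genes described here were the 172 genes, of 8191 in the deposited expression table, whose mouse symbol begins with Slc followed by a digit. Membership went by symbol, and the gene group was chosen with earlier results of these data known. Of these, 3 (Slc4a1ap, Slc7a6os and Slc9a3r2) encode proteins that neighbour or bind transporters, which left 169 transporter genes. Sorted by the substrate usual for each family, 5 were facilitative hexose carriers (Slc2), 21 belonged to amino acid families (Slc1, Slc3, Slc7, Slc36, Slc38 and Slc43), 19 to metal families (Slc11, Slc30, Slc31, Slc39 and Slc41), 28 to the mitochondrial carriers (Slc25) and 96 to other families. The GENCODE mouse annotation of GRCm38 holds 371 protein-coding genes named in this way, and those outside the 172, Slc7a11, Slc11a1, Slc16a3, Slc38a9 and Slc40a1 among them, were not analysed here.

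RNA was sequenced from myeloid-derived suppressor cells (MDSCs), immature myeloid cells that restrain T cells, of the spleens of aged mice on the BALB/c background. The 3 groups were wild-type (WT), Tnfr1-/- and Tnfr2-/- mice, the knockouts lacking tumour necrosis factor receptor 1 or 2, with 2 samples per group and no treatment named. Aged mice were 18 to 24 months old, and each sample pooled MDSCs of 5 mice. The cells were enriched with an isolation kit after lysis of erythrocytes and checked as CD45+Gr1+CD11b+, and no cell-type-specific driver was named for either deletion. The comparisons ask how the absence of each TNF receptor goes with the transcriptome of aged MDSCs.

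SLC proteins carry sugars, amino acids, nucleosides, ions, metals and cofactors across the plasma membrane and the membranes of organelles, mostly by facilitated diffusion or by coupling to an ion gradient. In myeloid cells they set the supply of glucose for glycolysis, of arginine for arginase and nitric oxide synthase, and of glutamine and leucine for growth signalling at the lysosome. Macrophages that clear erythrocytes also depend on them to move haem, iron and zinc out of the phagolysosome, and the Slc25 carriers link the cytosol to the mitochondrial matrix.

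Several properties of the whole table bear on every value below. It lists only genes that differ between the genotypes: the one-way ANOVA recomputed from the 6 columns gave p under 0.05 for all 8191 genes, so membership of the table is itself a selection. Summed FPKM (fragments per kilobase of transcript, scaled to library size) was 344714 and 346869.6 in the WT samples and 133604 to 155248 in the knockouts, and the WT values carry up to 10 significant digits where the knockout values carry up to 6. A difference in how the WT columns were made and a difference in genotype cannot be told apart. Comparisons with WT are therefore also given after median-ratio scaling, which moved the median log2 change of all genes from −0.74 to −0.032 in Tnfr2-/- and from −0.83 to −0.033 in Tnfr1-/- MDSCs. Tnfrsf1b, which encodes TNFR2, was at 112 and 115 FPKM in WT, 47.8 and 69.6 in Tnfr1-/- and 11.3 and 14.3 in Tnfr2-/- MDSCs. Cell type markers moved as well. The 3 listed granulocyte markers of 11 (Retnlg, Mmp9 and Csf3r) summed to 15.4 and 13.7 FPKM in WT and to 1522 to 3069.5 FPKM in the knockouts. The 10 red pulp macrophage markers summed to 2566 and 2701 FPKM in WT and to 246 to 315 FPKM in the knockouts, 9 of them lower as deposited. Cd163 was higher, at 0.347 and 0.359 FPKM in WT and 1.67 to 2.38 FPKM in the knockouts. After median-ratio scaling 7 were called lower in Tnfr2-/- and 6 in Tnfr1-/- MDSCs, where 21.0% and 22.1% of all genes were. The 4 listed B cell markers of 6 summed to 46.5 and 46.9 FPKM in WT and to 167 to 382 FPKM in the knockouts. Of the 4 listed monocyte markers of 6, Ccr2, F13a1 and Cx3cr1 were higher and Csf1r lower than WT in both knockouts as deposited. Of the 3 listed dendritic cell markers of 5, Itgax was lower and Flt3 higher in both. Zbtb46 was called lower in Tnfr1-/- MDSCs alone. The part of these cell types in the SLC differences was not tested, and in bulk samples fewer cells of a type and less RNA per cell cannot be told apart. Both knockouts were compared with the same 2 WT samples. With 2 samples against 2 an exact permutation test of 1 gene cannot go below p = 0.3333, so genes were tested with limma on log2(FPKM + 1) across the table, and a gene was called at a Benjamini-Hochberg adjusted p under 0.05 and a fold over 1.5. The adjustment covers only genes already filtered by ANOVA on these values, so it does not hold the share of false calls at the stated level.

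Most listed SLC genes were lower in the knockouts than in WT, and a smaller set was higher. In Tnfr2-/- MDSCs 22 of the 172 rose, where 13.6% of all genes were called higher, and 101 fell, where 57.1% of all genes were called lower. In Tnfr1-/- MDSCs 22 rose (14.1% of all genes) and 109 fell (60.7% of all genes). These shares lie close to those of the table as a whole. After median-ratio scaling the counts were 26 higher and 54 lower in Tnfr2-/- (21.8% and 21.0% of all genes) and 29 higher and 53 lower in Tnfr1-/- MDSCs (23.3% and 22.1% of all genes). Quantile normalization gave 24 higher and 52 lower in Tnfr2-/- (20.8% and 22.8% of all genes) and 28 higher and 57 lower in Tnfr1-/- MDSCs (21.4% and 25.3% of all genes). Calls that held with all 3 scalings (FPKM as deposited, median-ratio scaling and quantile normalization) numbered 22 higher and 50 lower in Tnfr2-/- (13.6% and 19.9% of all genes) and 22 higher and 51 lower in Tnfr1-/- MDSCs (14.1% and 21.4% of all genes), and no SLC gene was called in opposite directions by any pair of scalings. Every gene of the whole table called higher as deposited also stayed so with all 3 scalings, so this check hardly bears on the rises. The median log2 change of the 172 genes was −0.89 in Tnfr2-/- and −0.97 in Tnfr1-/- as deposited, and −0.21 and −0.19 after median-ratio scaling. Of the same genes, 21 were higher and 99 lower than WT in both knockouts. The share of all genes called in both was not counted. The knockouts share their WT samples, so this overlap is not read as a trait of SLC genes. At 1 FPKM or more stood 134 or 135 of the 172 genes in the WT samples and 109 to 114 in the knockout samples, and between 6 and 13 were listed at 0 in a sample.

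**Figure D1:**
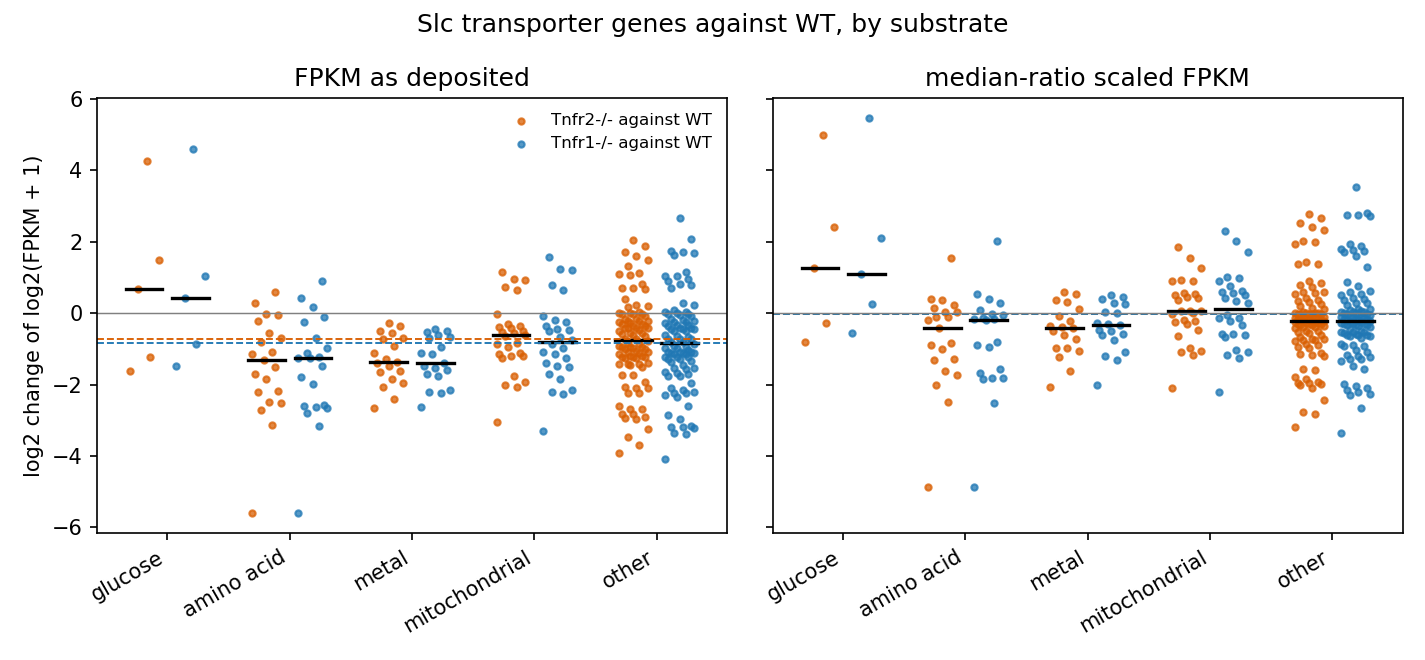
Log2 change of log2(FPKM + 1) against WT for the 169 SLC transporter genes by substrate group, as deposited (left) and after median-ratio scaling (right). Each point is 1 gene, orange for Tnfr2-/- and blue for Tnfr1-/-, black bars are group medians, and dashed lines are the medians of all 8191 genes in each comparison. The amino acid, metal and other groups have medians below the dashed lines in both panels, and Slc2a3 (glucose, top) and Slc7a2 (amino acid, bottom) stand at the ends.

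Because a share within a sample does not depend on a scaling factor of that sample, the substrate groups were also read as shares of the summed FPKM of the 169 transporters. That sum was a nearly constant part of the table, from 0.990% to 1.07% in the 6 samples. Hexose carriers held 2.20% and 2.31% of it in WT, 10.04% and 9.89% in Tnfr1-/- and 10.1% and 6.82% in Tnfr2-/- MDSCs, so every knockout sample lay above both WT samples. Without Slc2a3 the mean share was 2.19% in WT, 4.68% in Tnfr1-/- and 4.46% in Tnfr2-/- MDSCs. Metal transporters held 12.02% and 11.9% in WT, 10.02% and 9.04% in Tnfr1-/- and 9.69% and 9.71% in Tnfr2-/- MDSCs, and every knockout sample lay below WT. Mitochondrial carriers held 37.1% and 37.6% in WT, 32.8% and 32.5% in Tnfr1-/- and 32.9% and 38.8% in Tnfr2-/- MDSCs, where the second Tnfr2-/- sample lay above WT and the groups overlapped. Amino acid transporters held between 10.3% and 11.6% in the 6 samples. Without Slc38a2, the member with the highest mean, their mean share was 10.6% in WT, 7.07% in Tnfr1-/- and 7.24% in Tnfr2-/- MDSCs.

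**Figure D2:**
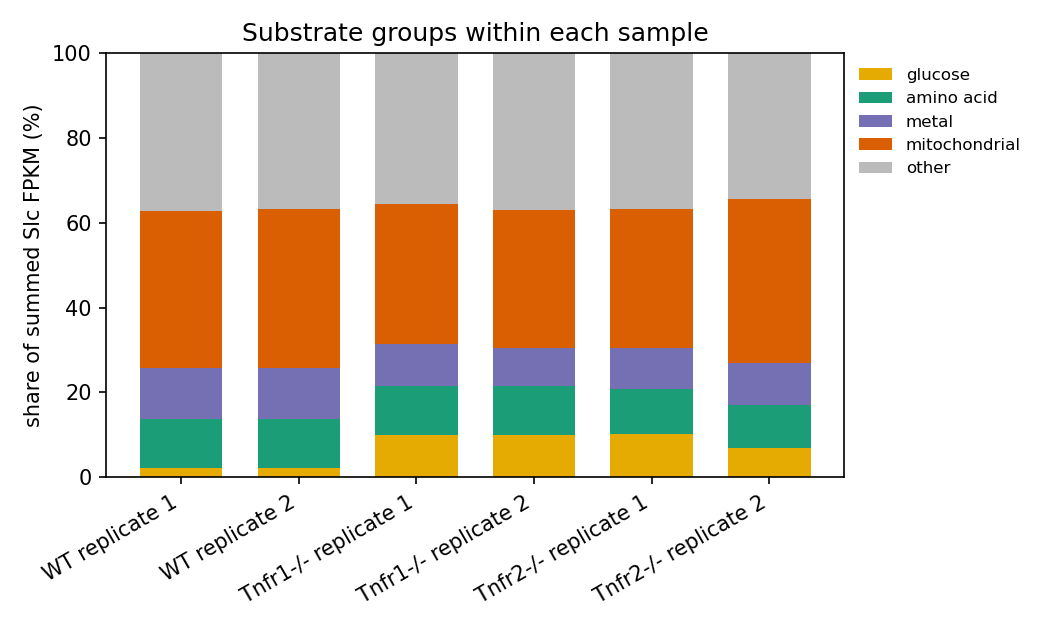
Share (%) of the summed FPKM of the 169 SLC transporter genes held by each substrate group in each of the 6 samples, stacked to 100%. The yellow hexose carrier segment is at most 2.31% in the WT samples and 6.82% to 10.1% in the knockout samples.

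Among hexose carriers the glucose transporter genes exchanged rank. Slc2a3 (GLUT3, the high-affinity glucose transporter of neurons and neutrophils, chr6:122727809-122801640) was at 2.39 and 2.14 FPKM in WT, 84.6 and 72.2 in Tnfr1-/- and 84.9 and 44.98 in Tnfr2-/- MDSCs. Both WT values lie far below all 4 knockout values, and the 2 Tnfr2-/- samples differ from each other more than the 2 Tnfr1-/- samples do. The rise was 4.27 ± 0.30 (SE) on the log2 scale in Tnfr2-/- and 4.60 ± 0.30 (SE) in Tnfr1-/- (limma adjusted p = 1.93e-04 and 1.36e-04), the largest rise among the 172 genes in either comparison. Slc2a3 stood 117th and 121st among the 169 transporters by FPKM in the WT samples and 3rd to 5th in the knockout samples.

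Slc2a1 (GLUT1, the basal glucose transporter of most cells, chr4:119108711-119137983) was at 50.3 and 53.9 FPKM in WT, 25.6 and 31.5 in Tnfr1-/- and 22.97 and 20.02 in Tnfr2-/- MDSCs. As deposited it fell in both knockouts, with a log2 change of −1.24 in Tnfr2-/- and −0.85 in Tnfr1-/- MDSCs, but the change was −0.27 and 0.26 after median-ratio scaling and −0.43 and 0.14 after quantile normalization, so the direction turned in Tnfr1-/- and neither was called after a scaling. The ratio of Slc2a3 to Slc2a1 within a sample, which no factor per sample changes, was 0.0475 and 0.0398 in WT, 3.31 and 2.29 in Tnfr1-/- and 3.70 and 2.25 in Tnfr2-/- MDSCs. Slc2a3 was thus the minor of these 2 transcripts in each WT sample and the major one in each knockout sample.

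Slc2a6 (GLUT6, a lysosomal hexose carrier of myeloid cells) was at 13.5 and 14.1 FPKM in WT, 26.3 and 32.96 in Tnfr1-/- and 40.5 and 40.01 in Tnfr2-/- MDSCs, with no overlap between the 3 groups. It rose by 1.48 in Tnfr2-/- and by 1.04 in Tnfr1-/- MDSCs (adjusted p = 2.61e-04 and 6.92e-04). Slc2a9, a urate and fructose carrier, was at 1.30 and 1.63 FPKM in WT, 2.28 and 2.26 in Tnfr1-/- and 2.97 and 2.83 in Tnfr2-/- MDSCs and rose in Tnfr2-/- MDSCs (0.66 ± 0.088 (SE)). In Tnfr1-/- MDSCs its log2 difference of 0.41 fell short of the fold of 1.5 as deposited and was 1.09, past it, after median-ratio scaling. The Tnfr2-/- call of Slc2a9 was lost without the first WT sample (log2 change 0.57). Slc2a8 (GLUT8, an intracellular carrier) was at 7.68 and 8.23 FPKM in WT, 2.48 and 1.97 in Tnfr1-/- and 1.88 and 2.01 in Tnfr2-/- MDSCs and fell in both knockouts, a call that with Tnfr1-/- was lost after median-ratio scaling.

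**Figure D3:**
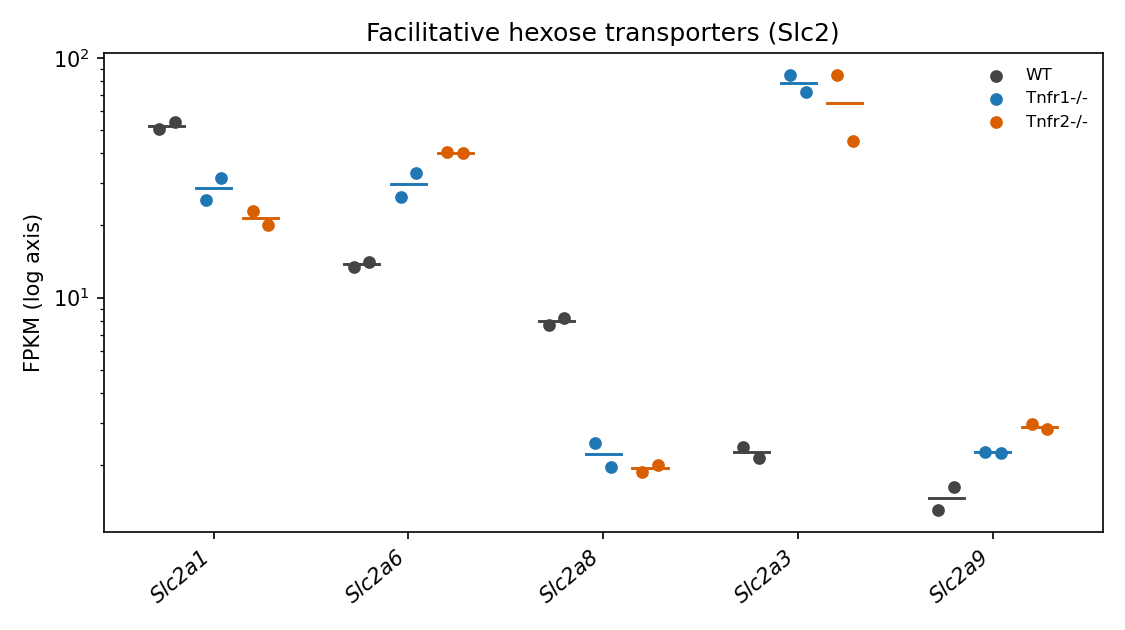
FPKM (log axis) of the 5 listed Slc2 genes in each sample, ordered by mean WT level; points are samples and short bars are group means. Slc2a1 leads in WT at 50.3 and 53.9 FPKM, and Slc2a3 rises from 2.39 and 2.14 FPKM in WT to between 45.0 and 84.9 FPKM in the knockouts.

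In the amino acid families 1 gene rose and 15 of 21 fell in Tnfr2-/- MDSCs, where 13.6% and 57.1% of all genes did. In Tnfr1-/- MDSCs 1 rose and 16 fell, where 14.1% and 60.7% of all genes did. With all 3 scalings 1 rose and 9 fell in either comparison, where 13.6% and 14.1% of all genes rose and 19.9% and 21.4% fell. The median log2 change was −0.41 and −0.20 after median-ratio scaling against −0.032 and −0.033 over all genes. The deepest fall among the 172 genes was that of Slc7a2 (CAT2, the inducible arginine transporter that supplies arginase and nitric oxide synthase, chr8:40862396-40922308). Its level was 47.02 and 51.04 FPKM in WT and 0.0306 to 0.0434 FPKM in the 4 knockout samples, which do not approach the WT values. The log2 change was −5.59 ± 0.079 (SE) in Tnfr2-/- and −5.60 ± 0.079 (SE) in Tnfr1-/- (adjusted p = 5.47e-06 and 5.29e-06), and −4.86 and −4.87 after median-ratio scaling. Slc7a2 held 11.96% and 12.9% of the amino acid group's FPKM in WT and at most 0.0262% in any knockout sample.

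Slc38a2 (SNAT2, a sodium-coupled carrier of small neutral amino acids) was the single amino acid transporter that rose. It was at 36.2 and 35.2 FPKM in WT, 63.7 and 72.5 in Tnfr1-/- and 58.3 and 50.4 in Tnfr2-/- MDSCs, every knockout sample above both WT samples. The rise was 0.59 in Tnfr2-/- and 0.91 in Tnfr1-/- as deposited and 1.55 and 2.02 after median-ratio scaling. The Tnfr2-/- call lay close to the fold of 1.5 and was lost without the first Tnfr2-/- sample (log2 change 0.48) or the second WT sample (0.57). Slc1a5 (ASCT2, a glutamine exchanger), which outranked Slc38a2 in WT, was at 46.7 and 44.6 FPKM in WT, 18.6 and 18.3 in Tnfr1-/- and 17.2 and 25.7 in Tnfr2-/- MDSCs, and its fall as deposited was not called after either scaling (−0.12 and −0.16 with median ratios). The ratio of Slc38a2 to Slc1a5 was 0.776 and 0.788 in WT and 1.96 to 3.97 in the knockouts.

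Slc36a1 (PAT1, which exports small amino acids from lysosomes) was at 46.2 and 43.3 FPKM in WT, 10.1 and 10.9 in Tnfr1-/- and 11.6 and 11.8 in Tnfr2-/- MDSCs, and its log2 change was −1.85 ± 0.074 (SE) in Tnfr2-/- and −1.99 ± 0.074 (SE) in Tnfr1-/- MDSCs. The remaining members of that family gave 26.4 and 25.8 FPKM in WT against 3.40 to 5.39 in the knockouts for Slc36a4 and 7.87 and 8.04 against 0 to 0.038 for Slc36a2. Both fell under all 3 scalings, while Slc36a3, the fourth member, was not called, at 0.246 and 0.244 FPKM in Tnfr2-/- MDSCs. Slc38a7 (SNAT7, the lysosomal glutamine exporter) fell from 21.6 and 22.8 FPKM in WT to 2.55 to 3.10 FPKM in the knockouts. Of the genes of lysosomal amino acid sensing, the machinery through which such carriers signal to mTORC1, 20 of 34 were listed, and 1 was called higher and 13 lower in Tnfr2-/- MDSCs as deposited, against 4 and 3 after median-ratio scaling. Of all genes 13.6% were called higher and 57.1% lower as deposited, and 21.8% and 21.0% after median-ratio scaling. The direction of the amino acid sensing list thus depended on the scaling, with a median log2 change of −0.78 as deposited and 0.16 after median ratios.

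Slc1a3 (GLAST, a glutamate transporter) was at 6.91 and 8.30 FPKM in WT, 0.439 and 0.437 in Tnfr1-/- and 0.375 and 0.23 in Tnfr2-/- MDSCs and fell under all 3 scalings. Slc7a8 (LAT2, a neutral amino acid exchanger) was at 16.2 and 16.1 FPKM in WT, 1.39 and 1.59 in Tnfr1-/- and 2.64 and 2.90 in Tnfr2-/- MDSCs, the Tnfr2-/- samples above the Tnfr1-/- samples and both below WT. Its partner Slc3a2 (CD98, the heavy chain shared by Slc7a5 and Slc7a8) was at 25.2 and 26.02 FPKM in WT, 16.6 and 14.5 in Tnfr1-/- and 12.5 and 16.1 in Tnfr2-/- MDSCs. The fall of Slc3a2 as deposited turned to 0.14 in Tnfr2-/- and 0.40 in Tnfr1-/- after median-ratio scaling, with quantile normalization at −0.049 and 0.21. Slc7a5 (LAT1, a leucine transporter) was at 18.01 and 19.8 FPKM in WT, 8.22 and 6.56 in Tnfr1-/- and 5.39 and 8.91 in Tnfr2-/- MDSCs, a fall as deposited that neither scaling kept.

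No metal transporter gene rose as deposited. Of 19 listed, 15 fell in Tnfr2-/- and 16 in Tnfr1-/- MDSCs, where 57.1% and 60.7% of all genes did. All 19 had a negative log2 change at adjusted p under 0.05 in both comparisons, as had 74.8% and 76.0% of all genes. With all 3 scalings 7 and 6 fell, where 19.9% and 21.4% of all genes did, and none rose. After median-ratio scaling alone Slc30a1 was called higher in Tnfr2-/- MDSCs. The median log2 change after median-ratio scaling was −0.43 in Tnfr2-/- and −0.34 in Tnfr1-/- MDSCs. Slc11a2 (DMT1, which moves ferrous iron out of endosomes) was at 10.7 and 10.6 FPKM in WT, 1.32 and 1.66 in Tnfr1-/- and 0.845 and 1.58 in Tnfr2-/- MDSCs. It fell in both knockouts, with log2 changes of −2.42 ± 0.18 (SE) and −2.23 ± 0.18 (SE) as deposited and −1.62 and −1.32 after median-ratio scaling.

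Zinc importers of the Slc39 family were the largest metal family in the table. As deposited 9 of 10 fell in Tnfr2-/- and 8 in Tnfr1-/- MDSCs, where 57.1% and 60.7% of all genes fell. After median-ratio scaling 5 were called lower in each comparison, where 21.0% and 22.1% of all genes were. Slc39a1 (ZIP1, a plasma membrane zinc importer) was at 80.9 and 83.9 FPKM in WT, 15.3 and 18.9 in Tnfr1-/- and 18.9 and 22.05 in Tnfr2-/- MDSCs, and it fell under all 3 scalings. In GENCODE transcripts 21.8% of its 50-base windows also occur in the pseudogene Slc39a1-ps. Slc39a2 (ZIP2) was at 5.38 and 5.32 FPKM in WT and 0 to 0.0303 FPKM in the knockouts, and Slc39a13 at 13.6 and 12.3 FPKM and 1.89 to 2.63 FPKM. Slc39a7 (ZIP7, which releases zinc from the endoplasmic reticulum) had the highest mean of the group at 86.4 and 89.5 FPKM in WT, 26.3 and 25.99 in Tnfr1-/- and 28.04 and 40.4 in Tnfr2-/- MDSCs. Since 74.5% of its windows also lie in the overlapping gene model Gm20427, that level is uncertain, and its fall was not called in Tnfr2-/- MDSCs after scaling.

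Slc30a1 (ZnT1, the plasma membrane zinc exporter) was at 8.57 and 8.36 FPKM in WT, 5.18 and 5.93 in Tnfr1-/- and 6.63 and 7.10 in Tnfr2-/- MDSCs, a log2 difference of −0.27 and −0.53 as deposited that was short of the fold of 1.5 and turned to 0.60 and 0.46 after median-ratio scaling. The copper importer Slc31a1 (CTR1) was at 37.8 and 37.8 FPKM in WT, 12.4 and 11.4 in Tnfr1-/- and 12.2 and 15.8 in Tnfr2-/- MDSCs, and Slc31a2 (CTR2) was at 66.8 and 64.6 FPKM in WT, 28.96 and 20.7 in Tnfr1-/- and 31.5 and 16.7 in Tnfr2-/- MDSCs. Both were called lower as deposited and not after median-ratio scaling, and for Slc31a2 the call was also lost without the first WT sample in either comparison (log2 change −1.45 and −1.36), and with Tnfr1-/- without the second WT (−1.41) or the second Tnfr1-/- sample (−1.15). The knockout samples of Slc31a2 differed widely within each group, and both WT samples lay above them.

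Of 17 listed iron handling genes of 20, 2 rose and 13 fell in Tnfr2-/- MDSCs, and 2 rose and 8 fell after median-ratio scaling. Over all genes 13.6% rose and 57.1% fell as deposited, and 21.8% rose and 21.0% fell after median-ratio scaling. Fth1, the ferritin heavy chain that stores iron, was at 12944 and 12975 FPKM in WT, 968 and 1108 in Tnfr1-/- and 1117 and 1091 in Tnfr2-/- MDSCs. The 2 that rose were Steap4, a metalloreductase, from 0.24 and 0.0859 FPKM in WT to 59.1 to 198 in the knockouts, and Fbxl5, an iron-sensing ubiquitin ligase subunit, from 21.8 and 20.4 to 63.3 to 93.5 FPKM. Of 7 listed zinc and copper buffering genes of 10, none rose and 5 fell as deposited in Tnfr2-/- MDSCs, and 2 rose and 3 fell after median-ratio scaling. Mt1, a metallothionein, was at 109 and 100.2 FPKM in WT, 8.34 and 6.27 in Tnfr1-/- and 3.09 and 4.87 in Tnfr2-/- MDSCs.

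The mitochondrial carriers held the most abundant SLC transcript and split in direction. As deposited 5 of 28 rose and 15 fell in Tnfr2-/- MDSCs, and 5 rose and 16 fell in Tnfr1-/- MDSCs. With all 3 scalings the counts were 5 and 5 in Tnfr2-/- and 5 and 6 in Tnfr1-/- MDSCs. Over all genes 13.6% rose and 57.1% fell in Tnfr2-/- and 14.1% and 60.7% in Tnfr1-/- MDSCs as deposited. With all 3 scalings 19.9% and 21.4% of all genes fell, and the shares that rose were the same. The median log2 change of the group turned from −0.63 to 0.050 in Tnfr2-/- and from −0.80 to 0.12 in Tnfr1-/- MDSCs after median-ratio scaling, so no direction is given for the group as a whole. Slc25a5 (ANT2, an ATP/ADP exchanger of the inner membrane, chrX:36795651-36798807) led all SLC genes in each sample at 529 and 557 FPKM in WT, 163 and 166 in Tnfr1-/- and 194 and 268 in Tnfr2-/- MDSCs. Its fall as deposited was not called after either scaling, and 33.8% of its windows also occur in other annotated transcripts, mostly processed pseudogenes.

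Slc25a3, the mitochondrial phosphate carrier, was at 257 and 260.1 FPKM in WT, 91.97 and 92.5 in Tnfr1-/- and 97.3 and 126 in Tnfr2-/- MDSCs, and Slc25a4 (ANT1, the paralogue of Slc25a5) was at 124 and 126 FPKM in WT, 26.5 and 27.9 in Tnfr1-/- and 20.9 and 40.1 in Tnfr2-/- MDSCs. Slc25a4 fell under all 3 scalings while Slc25a3 and Slc25a5 did so as deposited alone. The ratio of Slc25a5 to Slc25a4 was 4.26 and 4.42 in WT, 6.17 and 5.95 in Tnfr1-/- and 9.28 and 6.70 in Tnfr2-/- MDSCs, without overlap between the 3 groups.

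The deepest fall in the family was that of Slc25a1 (the citrate carrier, which exports citrate for fatty acid and sterol synthesis, chr16:17925223-17928219). It was at 81.8 and 84.4 FPKM in WT, 7.43 and 7.60 in Tnfr1-/- and 8.69 and 9.65 in Tnfr2-/- MDSCs, and no knockout sample came near WT. The log2 change was −3.05 ± 0.076 (SE) in Tnfr2-/- and −3.30 ± 0.076 (SE) in Tnfr1-/- (adjusted p = 1.20e-05 and 9.38e-06), and −2.09 and −2.22 after median-ratio scaling. Slc25a1 ranked 8th among the 169 transporters in both WT samples and 40th to 47th in the knockouts. Slc25a10, the dicarboxylate carrier, was at 12.96 and 13.6 FPKM in WT, 2.45 and 1.76 in Tnfr1-/- and 2.12 and 2.97 in Tnfr2-/- MDSCs and fell under all 3 scalings. By contrast the oxoglutarate carrier Slc25a11, a gene singled out after its values were seen, was at 47.3 and 49.00 FPKM in WT, 31.2 and 28.4 in Tnfr1-/- and 34.7 and 31.8 in Tnfr2-/- MDSCs, log2 changes of −0.52 and −0.68 as deposited and 0.45 and 0.44 after median-ratio scaling.

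Carriers of iron and glutathione went both ways. Slc25a37 (mitoferrin 1, the mitochondrial iron importer best known in erythroid cells) was at 14.3 and 11.99 FPKM in WT, 32.2 and 31.6 in Tnfr1-/- and 29.1 and 22.9 in Tnfr2-/- MDSCs, above WT in each knockout sample. It rose by 0.93 ± 0.14 (SE) in Tnfr2-/- and 1.22 ± 0.14 (SE) in Tnfr1-/- as deposited and by 1.85 and 2.29 after median-ratio scaling. Of the 9 erythroid markers only Tfrc was listed, at 19.9 and 18.3 FPKM in WT, 9.14 and 6.27 in Tnfr1-/- and 6.24 and 8.12 in Tnfr2-/- MDSCs.

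Slc25a39 and Slc25a40 encode paired mitochondrial glutathione carriers and moved in opposite directions; Slc25a39 was picked out after its values were seen. Slc25a40 was at 0.504 and 0.435 FPKM in WT, 2.45 and 2.37 in Tnfr1-/- and 2.39 and 2.12 in Tnfr2-/- MDSCs and rose under all 3 scalings. Slc25a39 was at 47.8 and 46.9 FPKM in WT, 9.09 and 9.01 in Tnfr1-/- and 9.74 and 13.8 in Tnfr2-/- MDSCs and fell under all 3 scalings. The other carriers that rose in both knockouts were low: Slc25a53, an orphan carrier, went from 0.323 and 0.338 FPKM in WT to 1.54 to 3.05 FPKM, Slc25a29, a basic amino acid carrier, from 0.329 and 0.22 to 0.887 to 1.08, and Slc25a27 (UCP4) from 0.058 and 0.0533 to 0.658 to 0.928.

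**Figure D4:**
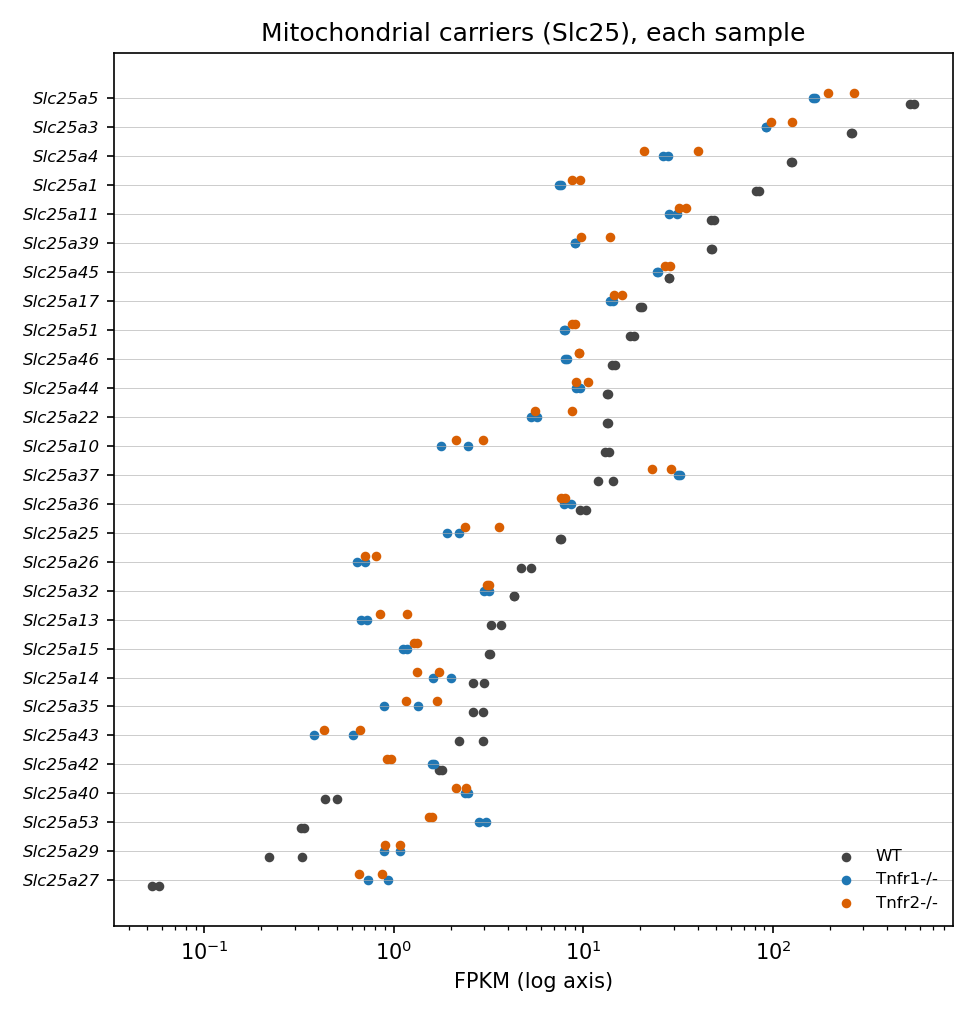
FPKM (log axis) of the 28 listed Slc25 genes in each of the 6 samples, ordered by mean WT level; grey points are WT, blue Tnfr1-/- and orange Tnfr2-/-. Slc25a5 is highest in every sample, Slc25a1 falls from 81.8 and 84.4 FPKM to between 7.43 and 9.65 FPKM, and the 5 genes that rose include the 4 at the bottom.

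Transporters that belong to SLC families but carry other symbols were read beside them. Of 38 such genes 22 were listed, and 1 rose and 19 fell in Tnfr2-/- MDSCs, with 1 and 11 after median-ratio scaling. The shares over all genes were 13.6% and 57.1% as deposited, and 21.8% and 21.0% after median-ratio scaling. Mpc1, a subunit of the mitochondrial pyruvate carrier, was at 34.8 and 31.6 FPKM in WT, 3.57 and 3.04 in Tnfr1-/- and 4.24 and 3.995 in Tnfr2-/- MDSCs. Its partner subunit Mpc2 was at 60.6 and 65.3 FPKM in WT, 29.6 and 20.96 in Tnfr1-/- and 29.9 and 29.1 in Tnfr2-/- MDSCs, so its knockout levels stayed nearer to WT. The gene that rose was Sfxn5, a mitochondrial sideroflexin, at 2.61 and 2.16 FPKM in WT, 20.7 and 26.1 in Tnfr1-/- and 28.4 and 20.4 in Tnfr2-/- MDSCs. Ucp2, the most abundant at 814 and 817 FPKM in WT, 335 and 420.4 in Tnfr1-/- and 450.4 and 461 in Tnfr2-/- MDSCs, was lower as deposited and at a log2 change of 0.15 and 0.023 after median-ratio scaling.

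Among the 96 remaining transporters 13 rose and 52 fell in Tnfr2-/- and 14 rose and 56 fell in Tnfr1-/- MDSCs, and with all 3 scalings 13 and 27 and 14 and 29 did so. Over all genes 13.6% rose and 57.1% fell in Tnfr2-/- and 14.1% and 60.7% in Tnfr1-/- MDSCs as deposited. With all 3 scalings 19.9% and 21.4% of all genes fell, and the shares that rose were the same. Slc48a1 (HRG1, which moves haem out of the phagolysosomes of macrophages that clear erythrocytes, chr15:97778520-97792692) was at 166 and 164 FPKM in WT, 17.4 and 17.9 in Tnfr1-/- and 23.7 and 21.6 in Tnfr2-/- MDSCs. Knockout values lay at a small part of the WT level, with a log2 change of −2.81 ± 0.071 (SE) in Tnfr2-/- and −3.16 ± 0.071 (SE) in Tnfr1-/- (adjusted p = 1.25e-05 and 9.28e-06). The red pulp macrophage markers other than Cd163 fell with it as deposited, as given above, and their part in this fall was not tested. Slc46a1, a folate carrier that also accepts haem, went from 6.09 and 5.22 FPKM to 0.231 to 0.602 FPKM.

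The lysosomal histidine and peptide transporters moved in opposite directions. Slc15a3 (PHT2) was at 162 and 177 FPKM in WT, 22.99 and 31.6 in Tnfr1-/- and 37.6 and 39.4 in Tnfr2-/- MDSCs, and fell, and its log2 change was −2.11 ± 0.16 (SE) in Tnfr2-/- and −2.61 ± 0.16 (SE) in Tnfr1-/- MDSCs. Slc15a4 (PHT1, needed for endosomal Toll-like receptor signalling) was at 10.3 and 10.2 FPKM in WT, 18.9 and 19.05 in Tnfr1-/- and 20.1 and 27.7 in Tnfr2-/- MDSCs and rose by 1.13 and 0.83. Both calls held under all 3 scalings. The ratio of Slc15a4 to Slc15a3 was 0.0640 and 0.0575 in WT and 0.533 to 0.821 in the knockouts. Since 26.8% of the windows of Slc15a3 are shared with the overlapping Tmem132a and the strand of the reads is not given in the sources used here, part of its level could belong to that gene.

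The monocarboxylate carriers showed a similar split. Slc16a1 (MCT1, a proton-coupled lactate and pyruvate carrier, chr3:104638668-104658462) was at 14.4 and 14.4 FPKM in WT, 2.21 and 2.31 in Tnfr1-/- and 1.09 and 1.27 in Tnfr2-/- MDSCs, and fell, with log2 changes of −2.82 ± 0.087 (SE) and −2.24 ± 0.087 (SE). Slc16a6 (MCT7, a ketone body carrier) was at 5.66 and 5.21 FPKM in WT, 21.2 and 19.5 in Tnfr1-/- and 18.5 and 15.7 in Tnfr2-/- MDSCs and rose by 1.49 and 1.73, though 21.2% of its windows are shared with the neighbouring Amz2. Their partner protein Bsg (basigin, the chaperone of MCT1) was at 157 and 167 FPKM in WT, 34.7 and 34.9 in Tnfr1-/- and 35.8 and 43.5 in Tnfr2-/- MDSCs, and Emb (embigin, an alternative chaperone) at 55.9 and 50.7 FPKM in WT, 85.3 and 107 in Tnfr1-/- and 135 and 110.2 in Tnfr2-/- MDSCs. Bsg fell and Emb rose as deposited, with −1.03 and 2.16 in Tnfr2-/- MDSCs after median-ratio scaling. Of the 5 listed transporter partners, 1 rose and 3 fell in Tnfr2-/- MDSCs as deposited, where 13.6% and 57.1% of all genes did.

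Nucleoside carriers also diverged. Slc28a2 (CNT2, a concentrative purine nucleoside transporter) was at 2.38 and 2.86 FPKM in WT, 18.6 and 25.3 in Tnfr1-/- and 17.8 and 10.7 in Tnfr2-/- MDSCs, with a rise of 2.04 ± 0.27 (SE) in Tnfr2-/- and 2.65 ± 0.27 (SE) in Tnfr1-/- MDSCs, the largest rise among the other families. Of its windows 35.4% are shared with Gm14085. Slc29a1 (ENT1, the equilibrative transporter) fell from 52.6 and 53.2 FPKM to 4.17 to 7.41 FPKM, and Slc29a3 (ENT3, its lysosomal relative) was at 31.4 and 27.7 FPKM in WT, 8.21 and 8.92 in Tnfr1-/- and 12.2 and 15.1 in Tnfr2-/- MDSCs. The fall of Slc29a3 held under all 3 scalings in Tnfr1-/- MDSCs and as deposited alone in Tnfr2-/- MDSCs, a difference in calls that is not itself a test. The remaining listed Slc29 gene did not fall. In Tnfr1-/- MDSCs it was called higher, with a log2 change of 0.69 as deposited and 0.88 after median-ratio scaling. In Tnfr2-/- MDSCs it was not called, at 0.24 and 0.30.

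Further rises were seen for Slc44a2 (a choline transporter-like protein that carries a neutrophil antigen), at 25.3 and 24.9 FPKM in WT, 78.7 and 90.9 in Tnfr1-/- and 84.5 and 83.2 in Tnfr2-/- MDSCs, and for Slc22a15, an organic ion carrier, at 1.06 and 0.869 FPKM in WT, 7.72 and 6.78 in Tnfr1-/- and 7.42 and 5.13 in Tnfr2-/- MDSCs. The potassium chloride cotransporters Slc12a7 (KCC4) and Slc12a4 (KCC1) fell, from 26.95 and 28.2 FPKM in WT to 3.05 to 6.98 FPKM in the knockouts for Slc12a7 and from 17.1 and 15.4 to 2.67 to 5.16 FPKM for Slc12a4.

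Of the Slc6 family, carriers of neurotransmitters and osmolytes, 4 of 5 listed genes fell in both knockouts as deposited and after median-ratio scaling. Over all genes 57.1% fell in Tnfr2-/- and 60.7% in Tnfr1-/- MDSCs as deposited, and 21.0% and 22.1% after median-ratio scaling. Slc6a8, the creatine transporter, was at 17.8 and 17.7 FPKM in WT and 0.0683 to 0.386 FPKM in the knockouts, and Slc6a4, the serotonin transporter, at 11.3 and 10.8 and 0.0566 to 0.239 FPKM. Slc6a6, the taurine transporter, was the most abundant of them at 123 and 122 FPKM in WT, 35.1 and 35.2 in Tnfr1-/- and 39.1 and 33.5 in Tnfr2-/- MDSCs. Pf4, the 1 listed platelet marker of 4, went from 104 and 118 FPKM in WT to 3.12 to 4.30 FPKM, and its part in the fall of Slc6a4, a gene that platelets use, was not tested. Slc45a3, a proton-coupled sugar carrier, was at 34.3 and 31.9 FPKM in WT, 2.32 and 3.01 in Tnfr1-/- and 2.18 and 1.17 in Tnfr2-/- MDSCs. The 3 listed fatty acid transport proteins (Slc27) all fell as deposited and after median-ratio scaling, Slc27a1 from 21.2 and 21.3 to 1.72 to 1.98 FPKM. Nucleotide sugar carriers (Slc35) gave 9 falls of 16 in Tnfr2-/- MDSCs as deposited and 3 after median-ratio scaling, beside 57.1% and 21.0% of all genes.

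Promoter sequence was read for a motif recognised by the MiT/TFE and MYC families of basic helix-loop-helix factors, which act on genes of lysosomes, iron and growth. The motif searched was CACGTG, an exact 6-base match that reads the same on both strands, in the 250 bases before the RefSeq transcription start (GRCm38.p6). Of the 172 genes 127 matched the promoter table, and 14 (11.02%) held the motif, against 8.66% of the 6593 promoters of listed genes and 6.05% of all 27025 promoters. Of the 14 genes with it 9 fell (64.3%), 1 rose (Slc12a9, 7.14%) and 4 were not called in Tnfr2-/- MDSCs as deposited. Of the 113 without it 69 fell (61.1%) and 13 rose (11.5%). Over all genes 57.1% fell and 13.6% rose. The windows of 3 genes that fell under all 3 scalings and carry the motif are shown 5′ to 3′ on the strand of the gene, with the motif in capitals, for Slc36a1 (chr11:55204090-55204339, plus strand), Slc16a1 (chr3:104638414-104638663, plus strand) and Slc25a1 (chr16:17928220-17928469, minus strand).
Slc36a1: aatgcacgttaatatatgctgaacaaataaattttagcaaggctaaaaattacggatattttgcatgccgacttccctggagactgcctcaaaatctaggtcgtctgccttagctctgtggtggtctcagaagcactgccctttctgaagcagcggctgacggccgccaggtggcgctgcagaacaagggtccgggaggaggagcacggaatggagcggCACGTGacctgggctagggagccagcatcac
Slc16a1: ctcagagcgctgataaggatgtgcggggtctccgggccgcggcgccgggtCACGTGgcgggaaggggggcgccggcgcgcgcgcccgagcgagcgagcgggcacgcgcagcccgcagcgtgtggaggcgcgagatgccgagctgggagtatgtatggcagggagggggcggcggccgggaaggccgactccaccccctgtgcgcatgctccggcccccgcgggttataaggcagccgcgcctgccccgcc
Slc25a1: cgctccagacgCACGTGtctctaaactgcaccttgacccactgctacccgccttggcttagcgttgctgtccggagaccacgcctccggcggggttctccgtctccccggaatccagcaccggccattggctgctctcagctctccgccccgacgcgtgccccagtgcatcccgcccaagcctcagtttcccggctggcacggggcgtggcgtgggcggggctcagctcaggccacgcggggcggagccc
The first base of the motif lies 31 bases before the start of Slc36a1, 200 before that of Slc16a1 and 239 before that of Slc25a1. A match in these windows is a description of letters.

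Between the knockouts few SLC genes differed. In Tnfr2-/- against Tnfr1-/- MDSCs 0 of 172 were called higher by limma and 2 lower, where 0.842% of all genes were called higher and 0.610% lower. An unadjusted limma p under 0.05 was found for 41 of the 172 SLC genes and for 1962 of all 8191 genes. The levels compared are those of the 4 knockout samples, while the spread was estimated over all 6, WT included. With limma lacking the variance trend, fitted to the 2 knockout groups alone, or with a replicate block, 0 genes of the 172 had an adjusted p under 0.05. The calls also changed with the sample left out. For those fits the share of all genes called was not counted, so no number of SLC genes is given. Both samples of one knockout lay beyond both of the other for 93 SLC genes (54.1%), as for 51.0% of all genes, with Tnfr2-/- above for 58 and below for 35. The share of all genes was 34.9% above and 16.1% below.

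The called genes were Slc25a53 and Slc4a1. Slc25a53 was at 0.323 and 0.338 FPKM in WT, 3.05 and 2.80 in Tnfr1-/- and 1.59 and 1.54 in Tnfr2-/- MDSCs, with a log2 difference of −0.62 ± 0.054 (SE) and adjusted p = 0.0277. Slc4a1 (band 3, the anion exchanger of the erythrocyte membrane) was listed at 0 in both WT samples, at 2.30 and 1.95 FPKM in Tnfr1-/- and at 0.815 and 0.409 FPKM in Tnfr2-/- MDSCs. The log2 difference between knockouts was −0.96 ± 0.13 (SE) with adjusted p = 0.0407, and no fold is given against WT. Both calls were lost on leaving out any 1 sample other than the first Tnfr2-/- sample.

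A further 5 genes passed adjusted p under 0.05 and fell short of the fold of 1.5, which made 7 of 172 at that p, where 2.66% of all genes passed it. Slc16a1 was the nearest, at 2.21 and 2.31 FPKM in Tnfr1-/- and 1.09 and 1.27 FPKM in Tnfr2-/- MDSCs, a log2 difference of −0.58 ± 0.087 (SE) that was past the fold after either scaling (−0.73 and −0.62). The family relatives Slc16a5 and Slc16a7 differed by −0.34 and 0.46, so the 3 listed monocarboxylate carriers among the 5 did not share a direction. Slc25a42, a coenzyme A carrier, differed by −0.43, and Slc3a1, a cystine transporter subunit, by −0.19 at levels of at most 0.203 FPKM.

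**Figure D5:**
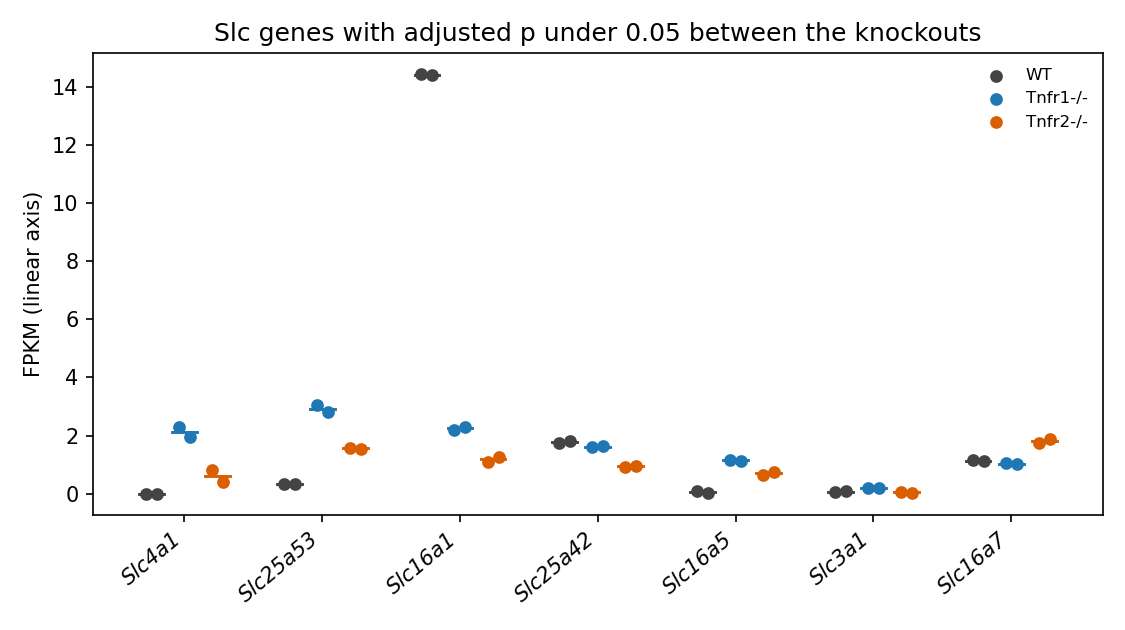
FPKM (linear axis) of the 7 SLC genes with adjusted p under 0.05 between Tnfr2-/- and Tnfr1-/- MDSCs, with WT shown for reference; points are samples and short bars are group means. The Tnfr2-/- samples lie below both Tnfr1-/- samples in 6 of the 7 genes and above them for Slc16a7.

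None of the 5 hexose carriers was called between the knockouts by limma, and 3 had an unadjusted p under 0.05, as had 1962 of all 8191 genes. For Slc2a3 the log2 difference was −0.33 (95% interval −1.12 to 0.46), and it was 0.12 without the second Tnfr2-/- sample and −0.78 without the first, so its direction rests on 1 sample. For Slc2a6 it was 0.44 (interval 0.13 to 0.74), with both Tnfr2-/- samples above both Tnfr1-/- samples and adjusted p = 0.113. For Slc7a8 it was 0.60 (adjusted p = 0.0503), and for Slc48a1 0.34 (adjusted p = 0.0746). Monocyte markers moved between the knockouts: the 4 listed of 6 (Ccr2, Csf1r, F13a1 and Cx3cr1) summed to 211 and 263 FPKM in Tnfr1-/- and 465 and 547 FPKM in Tnfr2-/- MDSCs, and their part in these differences was not tested.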

How the data were processed

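The deposited table holds FPKM values per gene, made by the authors from single-end reads of 50 bases checked with FastQC; the submitters' processing notes name mm10 and edgeR, and the aligner and the FPKM tool are not given in the sources used here. The deposited p-value column is the authors' one-way ANOVA, which filtered the table, and was not used. No read counts are given, so the depth per sample is unknown, no interval for counting error is given, and no count test was run. The study describes 2 independent experiments, each on pooled cells, and the labels do not say which experiment a sample number marks, so p-values measure the spread between these samples. Values were tested with limma 3.58.1 in R 4.3.3 on log2(FPKM + 1), fitted to all 6 samples with a variance trend and adjusted over all 8191 genes, and fold changes on this scale understate those of low genes. On simulated data for Tnfr2-/- against WT over 8191 genes, 175 of 200 genes changed by a log2 of 2 were recovered with 1 false call among the others. The simulated noise had equal spread in the 3 groups, with no shift of all WT values and no selection by ANOVA. In the data the SD between replicates over all genes was 0.079 in WT and 0.22 in Tnfr2-/- MDSCs. The false-call count therefore does not carry over to the calls reported here.

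Alternatives were a pseudocount of 0.1, a mean FPKM filter of 1, median-ratio and quantile scaling, no trend, only the 2 groups compared, a replicate block, and leaving out each sample. The count of calls made with both scalings, as deposited and with median ratios, was added after the data were examined. Named genes were, in each substrate group, the 3 highest by mean FPKM, the 3 largest called rises and falls in Tnfr2-/- against WT without overlap, all genes called between the knockouts, and a fixed list of known carriers, 43 in all. Other genes were named after their values were seen. The members and all gene lists were chosen with earlier results of these data known. Coordinates are from GENCODE on GRCm38, the assembly also called mm10, and promoters from RefSeq on GRCm38.p6. Of the 172 genes 87 overlap another annotated gene and 24 share over 10% of their 50-base windows with one. Figures were drawn with matplotlib 3.10.9.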

Additional observations from a re-analysis of the deposited data

Results flagged for a closer look

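Slc25a53 and Slc4a1 are given here because their effects against the shared WT samples differed between the knockouts by limma's test of the difference itself. Slc25a53 was lower in Tnfr2-/- than in Tnfr1-/- MDSCs, a difference of −0.62 on the log2 scale (limma adjusted p = 0.0277), with both Tnfr2-/- samples (1.59 and 1.54 FPKM) below both Tnfr1-/- samples (3.05 and 2.80 FPKM). Slc4a1 differed by −0.96 (adjusted p = 0.0407), at 0.815 and 0.409 FPKM against 2.30 and 1.95 FPKM and listed at 0 in WT. Over the alternatives other than leaving out a sample, the limma adjusted p ranged from 0.017 to 0.16 for Slc25a53 and from 0.029 to 0.177 for Slc4a1. Groups of 2 samples are too small for a check of single outlying samples.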

How the results depend on the processing

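Against WT the scaling decided how many SLC genes were lower, while each gene called higher as deposited stayed so with both scalings. So did all 1115 genes of the table called higher in Tnfr2-/- and all 1151 in Tnfr1-/- MDSCs. Median-ratio scaling divided WT values by 1.67 and 1.66 and knockout values by 0.74 to 0.88. It thus raised knockout values against WT, and a rise could hardly be lost in this check. Genes called lower numbered 54 in Tnfr2-/- and 53 in Tnfr1-/- MDSCs after median-ratio scaling, the same counts when calls as deposited and after median ratios were both required, and 52 and 57 after quantile normalization, against 101 and 109 as deposited. The median log2 change was −0.21 and −0.19 with median ratios, −0.19 and −0.25 with quantile normalization, −1.29 and −1.41 with a pseudocount of 0.1, and −1.13 and −1.15 over genes with a mean FPKM of at least 1. Directions turned for Slc30a1 (0.60 with median ratios and 0.46 with quantile normalization in Tnfr2-/-, 0.46 and 0.26 in Tnfr1-/-), for Slc3a2 (0.14 with median ratios in Tnfr2-/-, 0.40 and 0.21 in Tnfr1-/-) and for Slc2a1 in Tnfr1-/- (0.26 and 0.14). The cause was not tested. Leaving out each sample gave 19 to 22 higher and 97 to 104 lower in Tnfr2-/- (median −0.93 to −0.84) and 21 to 22 higher and 106 to 109 lower in Tnfr1-/- MDSCs (median −0.99 to −0.97).

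Between the knockouts, genes called lower numbered 0 without the variance trend, with only the 2 groups compared and with the replicate block, and 1 over genes with a mean FPKM of at least 1. Genes called higher numbered 2 with that filter, 1 with a pseudocount of 0.1 and 1 with quantile normalization. Leaving out each sample gave 0 to 9 higher, the 9 without the first Tnfr2-/- sample, and 0 to 3 lower. The median log2 difference of 0.020 was −0.027 with median ratios, −0.0054 with quantile normalization and 0.097 over genes with a mean FPKM of at least 1, and 0.020 to 0.045 over the samples left out. Differences between the knockouts turned with median ratios for Slc25a4 (−0.054), Slc39a13 (−0.023) and Slc6a6 (−0.10), and with quantile normalization for Slc25a4 (−0.059) and Slc6a6 (−0.12). They also changed sign over the samples left out for Slc11a2 (−0.43 to 0.054), Slc1a5 (−0.094 to 0.46), Slc22a15 (−0.43 to 0.032), Slc25a4 (−0.36 to 0.54), Slc2a3 (−0.78 to 0.12), Slc31a2 (−0.53 to 0.35), Slc39a13 (−0.060 to 0.22), Slc3a2 (−0.28 to 0.053), Slc44a2 (−0.12 to 0.090), Slc6a4 (−0.18 to 0.0042), Slc6a6 (−0.065 to 0.15) and Slc7a5 (−0.38 to 0.25).

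The labels do not say whether a sample number marks 1 of the 2 experiments, and the numbers were not taken to pair the samples: the correlation of the deviations of same-numbered samples was 0.022, 0.030 and 0.046 in the 3 pairs of groups. The replicate block left 22 higher and 101 lower in Tnfr2-/- and 22 and 109 in Tnfr1-/- MDSCs against WT, and 0 lower between the knockouts.

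Shares of summed SLC FPKM in WT, Tnfr1-/- and Tnfr2-/- without the top member of each group were 10.6%, 7.07% and 7.24% for amino acid, 9.66%, 7.83% and 7.69% for metal, 25.6%, 23.8% and 24.8% for mitochondrial and 33.6%, 35.1% and 33.9% for other transporters, and 4.68% and 4.46% for glucose in the knockouts. With a mean FPKM of at least 1 the metal share in Tnfr2-/- was 9.72%. The missing read depth, the table's filter on differences and the 2 samples per group limit all of these values.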
